A study of Mus musculus with 4 samples.

Results

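Potassium channel genes were examined in the ventricles of male 129SV mice, of which 2 samples were wild type and 2 carried a Trpc6 deletion (Trpc6-/-, the knockout). The members are every probe whose platform symbol starts with Kcn, a family letter or letters and a number, together with Abcc8 and Abcc9, the receptors that drugs of the sulfonylurea type bind. They came to 95 of 23473 gene probes and stood for 89 genes, of which 87 encode channel subunits and 2 (Kcnmb4os1 and Kcnmb4os2) are annotated as long non-coding RNAs. Each sample was hybridised to 1 array and read in 1 colour. The labels give no age and no source animal for a sample and do not describe the deletion, so the p-values reflect the spread among these samples alone, and that spread may be technical. In whole ventricle, fewer cells of a type and less RNA per cell cannot be told apart.

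Potassium channels let potassium leave the cardiomyocyte and so end the action potential and set the resting potential. The pore-forming families are the inward rectifiers (Kcnj), which hold the resting potential, the voltage-gated Kv channels, which repolarise, the tandem-pore leak channels (Kcnk), and the channels opened by intracellular calcium or sodium. Accessory subunits such as KChIP, KCNE and Kv beta proteins change gating and trafficking. In the adult mouse ventricle repolarisation is known to rest mainly on the fast transient outward and the slowly inactivating Kv currents rather than on the KCNQ and ERG currents that dominate in larger mammals. TRPC6 is a cation channel that admits calcium and is known to feed calcineurin and NFAT signalling.

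The median gene probe read 95.5 to 106 intensity units, and the detection threshold, the 95th percentile of the blank and negative control spots of an array, lay at 80.8 to 91.5 units. Between 76.3% and 83.2% of all gene probes and between 69.5% and 77.9% of the potassium channel probes exceeded it. Applied to the control spots themselves, the rule of 2 or more arrays above threshold took 13 of 480 spots (2.71%), and 0 of these 480 were above threshold on all 4 arrays. These 480 spots also set the threshold. Of 3454 spots without a probe, which did not set it, 64 (1.85%) were above it on 2 or more arrays and 4 (0.116%) on all 4. The Trpc6 probe read 80.5 and 89.2 units in wild type versus 84.1 and 82.6 units in the knockout, not above background on any array, so it does not check the labels. The ventricular myocyte genes Myh6, Myl2, Myl3, Tnni3 and Actc1 were bright on all arrays, with the dimmest of these, Tnni3, at 15889 to 17933 units. Irx4, the other gene on the ventricular list, was far dimmer, at 163 to 193 units, and above background on all 4 arrays.

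No potassium channel gene passed the test between genotypes. Of 69 genes tested, 0 had an adjusted p under 0.05 with limma and Benjamini-Hochberg adjustment, where 0% of all 15955 genes did, and the smallest adjusted p among the channel genes was 0.727. Only 2 had an unadjusted p under 0.05, Kcnd2 and Kcna7, both lower in the knockout, which is 2.9% of the members against 6.74% of all genes (3.67% higher and 3.08% lower). The median log2 fold change, knockout minus wild type, was -0.01 over the members and 0.00 over all genes, and the median absolute log2 fold change was 0.042 and 0.043.

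For both voltage-gated subunits and for the inward rectifier gene Kcnj12, the other member without overlap between the groups whose log2 fold change was at least 0.15 in size, the 250 bases before the transcription start are shown, credited to RefSeq (GRCm38.p6, first listed start). They are shown because calcineurin and NFAT lie downstream of TRPC6. Capitals mark the NFAT core GGAAA or its reverse complement TTTCC, searched on both strands.
Kcnd2, chr6:21215096-21215345, + strand: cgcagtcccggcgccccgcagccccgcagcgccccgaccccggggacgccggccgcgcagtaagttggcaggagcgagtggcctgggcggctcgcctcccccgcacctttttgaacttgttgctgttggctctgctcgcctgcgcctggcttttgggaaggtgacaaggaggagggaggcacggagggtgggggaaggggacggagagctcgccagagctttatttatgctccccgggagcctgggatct
Kcna7, chr7:45405710-45405959, + strand: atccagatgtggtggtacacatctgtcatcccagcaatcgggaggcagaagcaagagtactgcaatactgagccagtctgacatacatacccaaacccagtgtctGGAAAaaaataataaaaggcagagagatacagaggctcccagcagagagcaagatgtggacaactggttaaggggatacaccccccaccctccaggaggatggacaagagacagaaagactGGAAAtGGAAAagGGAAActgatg
Kcnj12, chr11:61065554-61065803, + strand: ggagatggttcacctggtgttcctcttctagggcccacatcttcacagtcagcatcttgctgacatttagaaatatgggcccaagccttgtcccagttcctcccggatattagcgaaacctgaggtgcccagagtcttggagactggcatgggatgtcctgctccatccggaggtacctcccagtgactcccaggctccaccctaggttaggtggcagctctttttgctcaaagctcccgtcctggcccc
The Kcna7 window held 4 matches and the windows of Kcnd2 and Kcnj12 held 0. At least 1 match was found in 55.6% of all 27025 RefSeq promoters and in 33 of the 67 member promoters in the table (49.3%). Windows with 4 or more made up 1.61% of all promoters and 2 of the 67 member promoters (2.99%). These 2 were Kcna7 and Kcns3, and Kcns3 was not above background on any array. The letters TATAAA or their reverse complement TTTATA, at any position of the window, were counted separately. They were found in 13% of all promoters and in 1 member promoter (1.49%), that of Kcnj9. Without a set position they do not define a TATA box. The windows also differed in CpG content, with 22 CpG in Kcnd2, 4 in Kcnj12 and 1 in Kcna7, where the median was 6 over all promoters and 9 over the members. A match is a description of the letters and not a binding site.

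Detection was described ahead of the values by subunit class, since brightness sets what the fold changes can show. Of 89 genes, 69 were above background on at least 2 arrays and 63 on all 4. Over the whole array 15955 of 19321 genes were above background on at least 2 arrays and 14536 on all 4. Every tested channel gene was above background on at least 1 array of each genotype. Most lay close above it, as did the median gene probe of each array, at 95.5 to 106 units. In 59 of the 69 tested genes the spot stayed under 2 times the threshold on every array, and the median ratio to the threshold was 1.13. The control spots themselves reached 1.04 to 1.07 times the threshold at their highest, so the dimmest detected genes lay within the range of single control spots.

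The spots of 10 genes reached 2 times the threshold on at least 1 array. They were Abcc9, Kcnj8, Kcnh2, Kcnip2, Kcng2, Kcnj14, Kcne1, Kcna7, Kcnd2 and Kcna1. Abcc9 read 7.04 to 9.67 times the threshold and Kcnj8 4.55 to 5.36 times. These ratios describe signal over background and are not abundances, since probes differ in how well they hybridise. No gene among the 69 reached 10 times the threshold on any array.

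**Figure D1:**
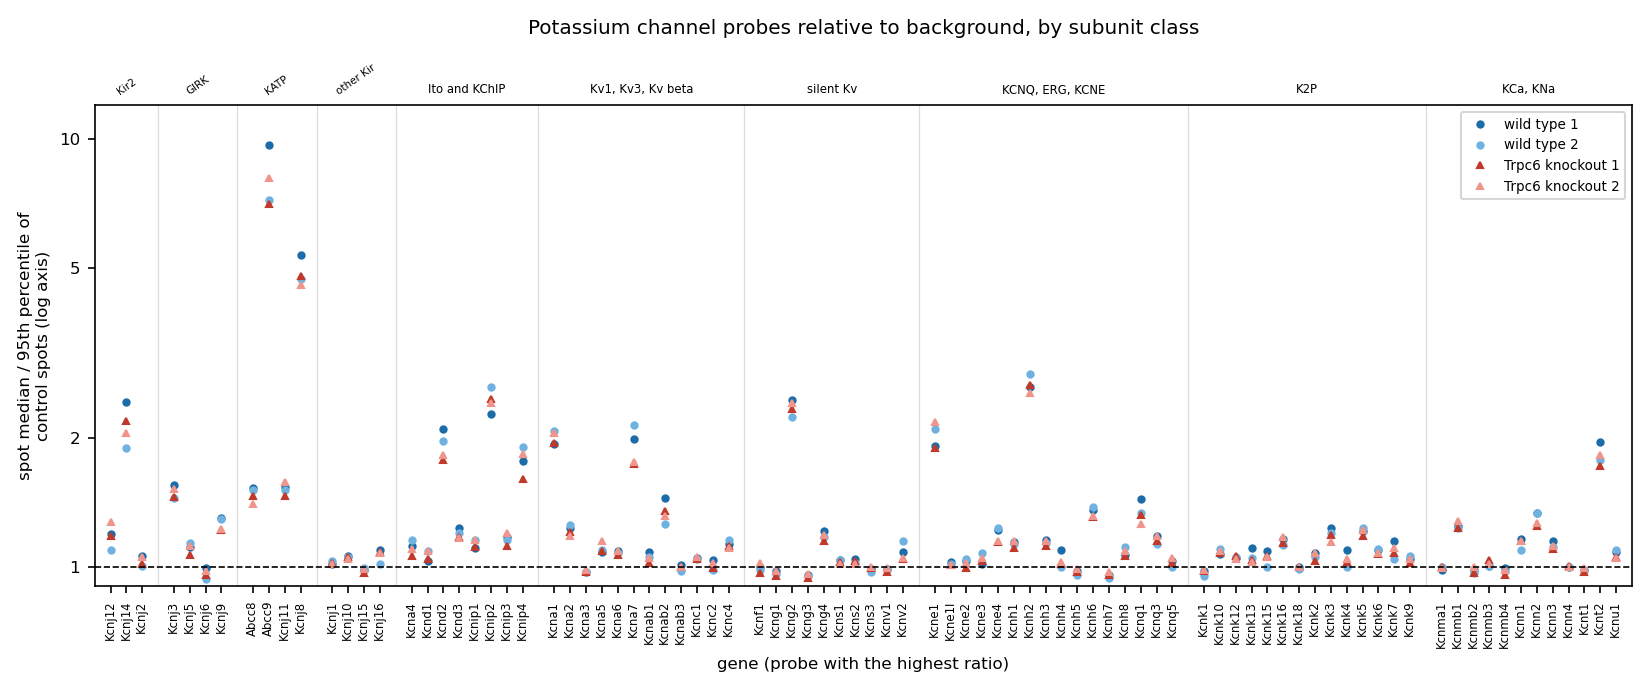
Spot median divided by the array's detection threshold (log axis, dashed line at 1) for the 87 channel subunit genes, grouped by subunit class, with 1 point per array for wild type (circles) and Trpc6 knockout (triangles). Most subunits lie close to the dashed line, and Abcc9 and Kcnj8 of the ATP-sensitive channels stand highest above it.

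The 20 of 89 genes without detection are listed by class, and their spread over the classes was not tested. All 4 genes of the ATP-sensitive channel, all 8 of the transient outward group and all 3 measured Kir2 genes were detected, whereas 5 of 10 silent Kv subunits and 5 of 12 calcium- and sodium-activated channel genes were not. The silent subunits not detected were Kcnf1, Kcng1, Kcng3, Kcns3 and Kcnv1. The others were Kcnma1, Kcnmb2, Kcnmb4, Kcnn4 and Kcnt1 of the calcium- and sodium-activated channels, Kcna3 and Kcnab3 of the Kv1 and beta families, Kcnh5 and Kcnh7 of the EAG and ERG families, Kcnj6 and Kcnj15 of the inward rectifiers, Kcnk1 and Kcnk18 of the leak channels, and the antisense RNAs Kcnmb4os1 and Kcnmb4os2. Their spots ranged from 77.1 to 91.2 units, or 0.935 to 1.02 times the threshold. A dim spot does not show that a transcript was missing.

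Near the threshold, Kcnc2, a Kv3 pore, was above it on 2 arrays, 1 of each genotype, and is the tested gene with the fewest. Just outside were Kcnn4, Kcnt1, Kcnf1 and Kcnab3, each above it on 1 array. Kcnma1, the pore of the large-conductance calcium-activated channel that is known from smooth muscle, was not above background with either of its probes on any array, while Kcnmb1, its beta subunit of smooth muscle, was above background on all 4.

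The transient outward group comprises the Kv4 pores, the Kv1.4 pore Kcna4 and the KChIP subunits. Of its 8 genes 4 were higher and 4 lower in the knockout, 0 and 1 of them at an unadjusted p under 0.05. Kcnd2, the Kv4.2 pore of the fast transient outward current in mouse ventricle, was at 7.16 and 7.10 (normalized log2 intensity) in wild type versus 7.001 and 6.97 in the knockout. Both knockout arrays lay below both wild-type arrays. The log2 fold change was -0.15 ± 0.04 (standard error, n = 2 arrays per group), or 1.11-fold lower, with an unadjusted limma p of 0.0215 and an adjusted p of 0.727. With 1 array left out, which leaves 1 array in a group, the log2 fold change lay between -0.18 and -0.12. The unadjusted limma p was 0.0655 with a variance that follows intensity and 0.299 in the authors' table.

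The other members of the group differed less between the genotypes than Kcnd2. Kcna4 was at 6.02 and 6.11 in wild type versus 5.96 and 6.01 in the knockout, without overlap. Kcnd3, the Kv4.3 pore, was at 6.20 and 6.19 in wild type versus 6.18 and 6.13 in the knockout, also without overlap. Its log2 fold change was -0.04 ± 0.04. Kcnip2, KChIP2, the cardiac partner of Kv4 channels, was at 7.31 and 7.61 in wild type versus 7.55 and 7.46 in the knockout. Its wild-type arrays enclosed both knockout arrays, and the log2 fold change of 0.05 ± 0.11 was -0.10 without the first wild-type array and 0.20 without the second. Among known regulators of Kcnd2 that are no members, Irx5, a repressor of Kcnd2 in mouse heart, was at 6.39 and 6.16 in wild type versus 6.48 and 6.27 in the knockout, with overlap. Dpp6, another Kv4 partner, was not above background on any array. Dpp10, on the same list of partners, was above background on all 4, with overlapping groups and a log2 fold change of 0.03 ± 0.05.

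Genes of the Kv1 and Kv3 channels and of the Kv beta subunits split evenly, with 5 of 10 higher and 5 lower. Kcna7, the Kv1.7 pore known from heart and skeletal muscle, was at 7.07 and 7.26 in wild type versus 6.95 and 6.91 in the knockout. The groups did not overlap, and the second wild-type array was highest. The log2 fold change was -0.23 ± 0.07, or 1.18-fold lower, with an unadjusted limma p of 0.0290 and an adjusted p of 0.727. With 1 array left out, the log2 fold change lay between -0.33, without the first wild-type array, and -0.14, without the second. Each such fit leaves 1 array in a group. The unadjusted limma p was 0.102 in the authors' table.

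Kcna5, the Kv1.5 pore of a slowly inactivating current in mouse ventricle, was at 5.95 and 6.01 in wild type versus 6.01 and 6.09 in the knockout. The groups touched, and the log2 fold change was 0.07 ± 0.05. Kcnab1, a Kv beta subunit, was at 5.95 and 5.93 in wild type versus 5.86 and 5.90 in the knockout, without overlap, with a log2 fold change of -0.06 ± 0.04. Kcna5, Kcna1 and Kcna6 are neighbours on chromosome 6, and their log2 fold changes were 0.07, 0.06 and 0.00, with overlapping groups in each. Of the 5 silent subunits tested, which cannot form channels alone, 1 was higher and 4 were lower, with log2 fold changes of -0.13 to 0.08.

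**Figure D2:**
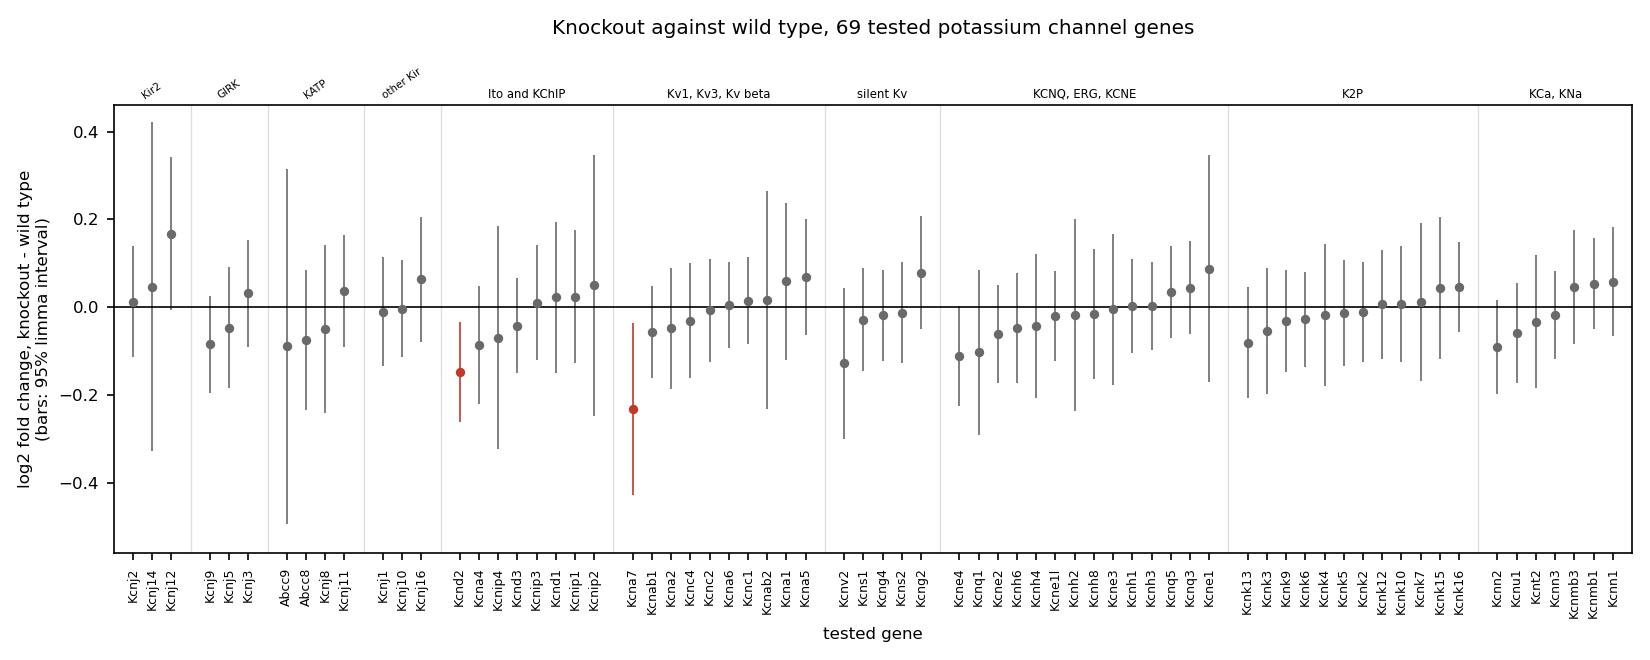
Log2 fold change (knockout minus wild type) of each of the 69 tested potassium channel genes with its 95% limma interval, n = 2 arrays per group, ordered within subunit class, with red points for an unadjusted p under 0.05. Kcnd2 at -0.15 and Kcna7 at -0.23 are the red points, and the intervals of the other 67 genes reach or cross 0.

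Of the 14 tested KCNQ, EAG, ERG and KCNE genes 5 were higher and 9 lower, with log2 fold changes of -0.11 to 0.09 and the smallest unadjusted limma p at 0.0530. Kcnq1, the pore of the slow delayed rectifier, was at 6.51 and 6.40 in wild type versus 6.42 and 6.28 in the knockout. Kcne1, its beta subunit, was at 7.01 and 7.21 in wild type versus 7.11 and 7.28 in the knockout. The log2 fold changes were -0.10 ± 0.07 for Kcnq1 and 0.09 ± 0.10 for Kcne1, and the groups overlapped in both. Their signs differed, but without the first wild-type array both lay below 0, at -0.050 and -0.015. Leaving out 1 array moved Kcnq1 between -0.18, without the first knockout array, and -0.030, without the second.

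Kcnh2, the ERG1 pore of the rapid delayed rectifier, was at 7.55 and 7.72 in wild type versus 7.69 and 7.55 in the knockout. Its arrays of both genotypes spanned almost the same range, and the log2 fold change of -0.02 ± 0.08 had a 95% interval of -0.24 to 0.20. After subtraction of local background it was 0.41, with an unadjusted limma p of 0.00636. Kcne4, a KCNE subunit that inhibits Kv channels, was singled out after its values were seen. It was at 6.19 and 6.25 in wild type versus 6.12 and 6.09 in the knockout, without overlap, with an unadjusted limma p of 0.0530 and an adjusted p of 0.744.

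The 3 measured Kir2 genes, which encode the strong inward rectifiers behind the resting current IK1, had log2 fold changes above 0, but only that of Kcnj12 kept its sign under all 14 alternatives. Kcnj2 came to -0.027 without the second wild-type array and to -0.010 without the second knockout array, and Kcnj14 to -0.29 after subtraction of local background and below 0 without the second wild-type or the first knockout array. Kcnj12, Kir2.2, was at 6.14 and 6.01 in wild type versus 6.20 and 6.30 in the knockout. Both knockout arrays lay above both wild-type arrays, with a log2 fold change of 0.17 ± 0.07, an unadjusted limma p of 0.0570 and an adjusted p of 0.751. The unadjusted limma p was 0.0270 with an offset of 16, 0.0350 with 75th percentile scaling and 0.0186 with a variance that follows intensity. It was 0.289 after subtraction of local background. Without 1 array the log2 fold change lay between 0.10, without the second wild-type array, and 0.23, without the first. The spot read only 1.10 to 1.27 times the threshold. The offset added during background correction shrinks fold changes of so dim a probe, and in the authors' deposited intensities, which carry no such offset, Kcnj12 read 17.7 and 10.1 units in wild type versus 17.3 and 25.3 units in the knockout, where the groups overlap, a ratio of group means of 1.53.

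Kcnj2, Kir2.1, the main IK1 pore of ventricle, was at 5.91 and 5.83 in wild type versus 5.86 and 5.90 in the knockout, with a spot of at most 1.06 times the threshold. This low signal over background limits the difference in Kcnj2 that could be seen. Kcnj14, Kir2.4, was at 7.42 and 7.04 in wild type versus 7.36 and 7.19 in the knockout. The wild-type arrays enclosed both knockout arrays, with a log2 fold change of 0.05 ± 0.14 that came to 0.23 without the first wild-type array and to -0.14 without the second.

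Kcnj3 and Kcnj5, pores of the acetylcholine-gated channel that is best known from atrium and sinus node, were both detected. Kcnj3 was at 6.63 and 6.56 in wild type versus 6.61 and 6.64 in the knockout. Kcnj5 was at 6.003 and 6.09 in wild type versus 5.97 and 6.03 in the knockout. The groups overlapped in both, with log2 fold changes of 0.03 ± 0.05 and -0.05 ± 0.05. Kcnj9, the other tested G protein-gated inward rectifier, was at 6.31 and 6.35 in wild type versus 6.26 and 6.22 in the knockout. Its groups did not overlap (log2 fold change -0.09 ± 0.04, unadjusted limma p 0.102, adjusted p 0.777). The atrial marker Myl7 was at 6.04 and 6.16 in wild type versus 6.03 and 6.18 in the knockout, and Myl4 was at 6.37, 7.44, 6.60 and 6.31 on the same arrays, highest on the second wild-type array. The other tested atrial markers did not move one way. Nppa, the atrial natriuretic peptide, was at 11.68 and 11.64 in wild type versus 11.99 and 12.61 in the knockout, without overlap (log2 fold change 0.64 ± 0.21, unadjusted limma p 0.0324, adjusted p 0.727). Bmp10 was lower without overlap and Stard10 overlapped, with log2 fold changes of -0.12 and 0.05. Over the 5 tested atrial markers 2 were higher and 3 lower, their summed log2 level was 37.9 and 38.6 in wild type versus 38.2 and 38.6 in the knockout, and their part in the values of Kcnj3 and Kcnj5 was not tested.

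The ATP-sensitive channel couples metabolism to excitability and is built of a Kir6 pore and a sulfonylurea receptor, and its genes lie in 2 pairs of neighbours, Kcnj8 with Abcc9 on chromosome 6 and Kcnj11 with Abcc8 on chromosome 7. In mouse heart Kir6.2 (Kcnj11) with SUR2A, from Abcc9, is known as the ventricular form, SUR1 (Abcc8) as the atrial one, and Kir6.1 (Kcnj8) with SUR2B as that of vascular smooth muscle and pericytes. Kcnj11 was at 6.62 and 6.64 in wild type versus 6.62 and 6.71 in the knockout. Abcc8 was at 6.61 and 6.64 in wild type versus 6.62 and 6.48 in the knockout. The log2 fold changes were 0.04 ± 0.05 and -0.07 ± 0.06, and the groups overlapped in both genes.

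Kcnj8 was at 8.68 and 8.54 in wild type versus 8.62 and 8.50 in the knockout. Abcc9 was at 9.59 and 9.19 in wild type versus 9.20 and 9.40 in the knockout. For both genes the first wild-type array was highest, the groups overlapped, and the log2 fold changes were -0.05 ± 0.07 and -0.09 ± 0.15. Without the first wild-type array that of Abcc9 came to 0.11 and without the second to -0.29, and it was 0.86 after subtraction of local background, with an unadjusted limma p of 0.00422. The summed log2 level of 6 pericyte markers was 42.9 and 42.8 in wild type versus 43.0 and 42.5 in the knockout, and that of 6 smooth muscle markers was 43.3 and 42.8 in wild type versus 43.8 and 43.1 in the knockout. All 12 of these markers were detected on all 4 arrays, 6 of them had a log2 fold change above 0, 0 had an unadjusted p under 0.05, and their part in the values of Kcnj8 and Abcc9 was not tested.

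**Figure D3:**
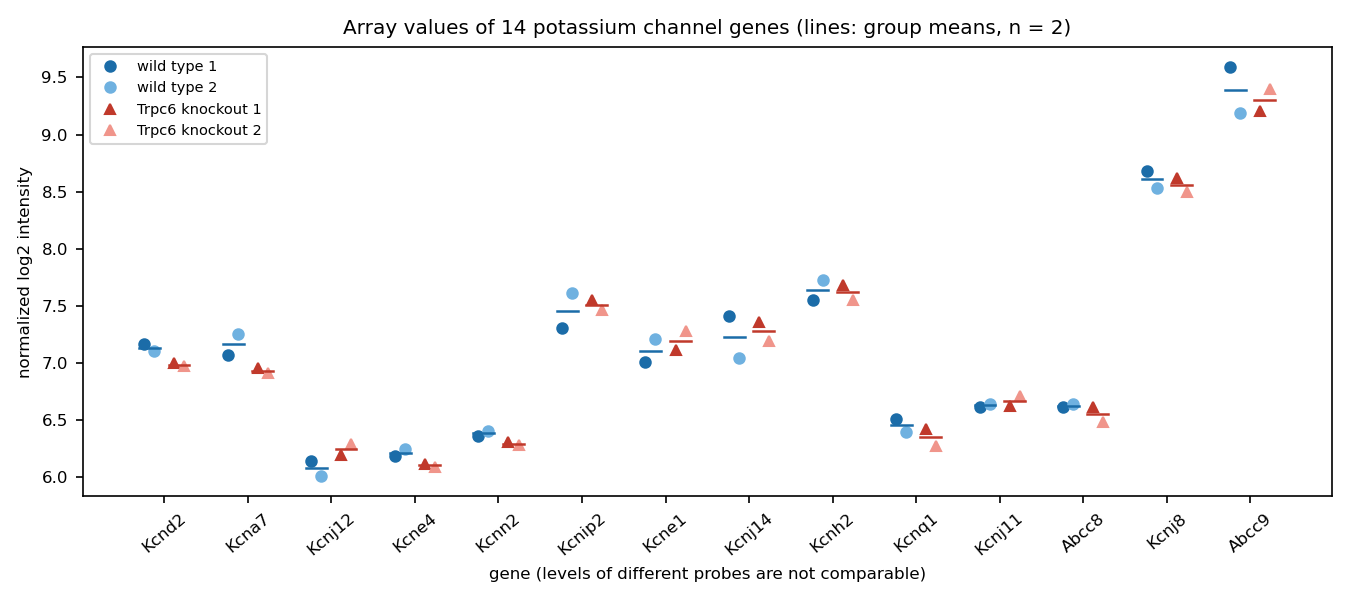
Normalized log2 intensity on each array of 14 potassium channel genes for wild type (circles) and Trpc6 knockout (triangles), with lines at the group means, n = 2 arrays per group. The groups do not overlap in Kcnd2, Kcna7, Kcnj12, Kcne4 and Kcnn2, and they overlap in the other 9, where the arrays of Abcc9, Kcnj14 and Kcnip2 lie widest apart.

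Of the 12 tandem-pore leak channel genes tested 5 were higher and 7 lower, all with log2 fold changes between -0.08 and 0.05, and their brightest spot read 1.23 times the threshold. Kcnk3, TASK-1, an acid-sensitive leak channel, was at 6.20 and 6.19 in wild type versus 6.20 and 6.08 in the knockout. Kcnk2, TREK-1, which opens on stretch, was at 5.94 and 5.93 in wild type versus 5.89 and 5.96 in the knockout. Kcnk6, TWIK-2, was at 5.97 and 6.02 in wild type versus 5.98 and 5.96 in the knockout. The groups overlapped in these 3 genes, and the class lay too close to background for its small differences to be read as stability.

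Among the 7 tested genes of calcium- and sodium-activated channels 3 were higher and 4 lower. Kcnn2, the small-conductance channel SK2, was at 6.36 and 6.41 in wild type versus 6.31 and 6.28 in the knockout. The groups did not overlap, with a log2 fold change of -0.09 ± 0.04, an unadjusted limma p of 0.0799 and an adjusted p of 0.761. Kcnmb1 was at 6.23 and 6.25 in wild type versus 6.28 and 6.30 in the knockout, without overlap and with a log2 fold change of 0.05 ± 0.04. Kcnt2, a sodium-activated channel, had 2 detected probes that differed in sign, with log2 fold changes of -0.03 ± 0.06 for the brighter and 0.09 ± 0.04 for the dimmer one when every probe was tested. Kcna2 and Kcnc1 also had 2 detected probes each, which had the same sign.

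The arrays of one genotype often lay further apart than the genotypes. The groups did not overlap in 21 of the 69 genes (30.4%), 8 higher and 13 lower, where 36.8% of all genes did not overlap, 19.4% higher and 17.4% lower. In 48 genes (69.6%) the distance between the wild-type arrays exceeded that between the group means, as it did in 61.5% of all genes. The median SD within a genotype was 0.047 log2 units in the members and 0.048 in all genes. In 63 of the 69 genes (91.3%) the absolute log2 fold change was under 0.1, against 79.7% of all genes. Most spots of the members lay near background, as did the median gene probe of each array. Whether this bears on the difference in shares was not tested.

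The split of 29 higher and 40 lower genes, where 51.1% of all genes were higher and 48.9% lower, depended on scaling. It was 37 and 32 after scaling to a common median, where 46.7% of all genes were lower. After scaling to the 75th percentile it was 46 and 23. There 30.2% of all genes were lower, and the median log2 fold change of all genes was 0.04. No direction can therefore be given for the potassium channel genes as a group. Kcnd2 and Kcna7 had log2 fold changes below 0 and Kcnj12 above 0 under all 14 alternatives, which for the 4 that leave out an array follows from groups that do not overlap.

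**Figure D4:**
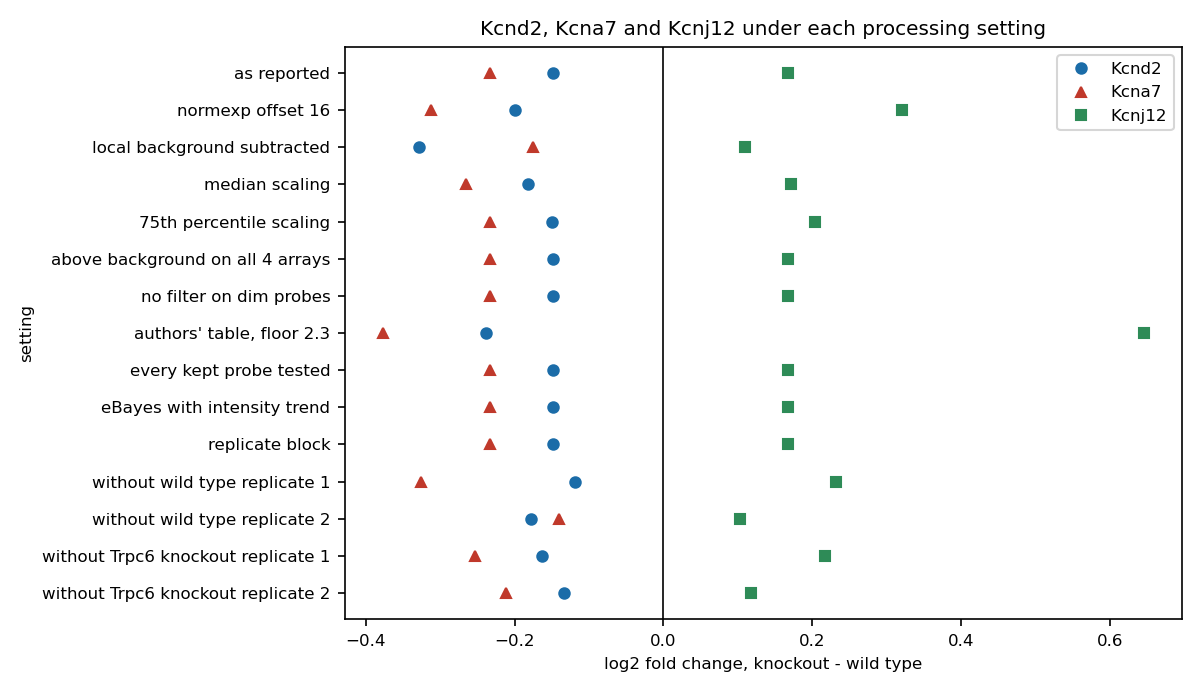
Log2 fold change (knockout minus wild type) of Kcnd2, Kcna7 and Kcnj12 as reported and under each of 14 alternative settings. Kcnd2 ranges from -0.33 to -0.12, Kcna7 from -0.38 to -0.14 and Kcnj12 from 0.10 to 0.65, the last highest in the authors' table, where dim probes are not shrunk.

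Partners, anchors and regulators of potassium channels that are no members gave no call either. Of 22 listed 17 were tested, 10 were higher and 7 lower, and 0 had an unadjusted limma p under 0.05. The smallest p was that of Dlg1, the scaffold SAP97 that binds Kv1 and Kir2 channels, at 7.47 and 7.50 in wild type versus 7.36 and 7.41 in the knockout, with a log2 fold change of -0.10 ± 0.04. Next came Cntn2, a contactin of conduction cells, and Irx3, a transcription factor of the conduction system, with log2 fold changes of 0.05 ± 0.04 and 0.04 ± 0.04. Lrrc26, a gamma subunit of the large-conductance channel, Cav3, caveolin 3, and Irx5 followed with -0.05 ± 0.05, 0.08 ± 0.09 and 0.10 ± 0.11. Ank2, which encodes an ankyrin that anchors channels, was not above background on any array.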

How the data were processed

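The members, lists and tests were chosen with earlier results of these data known. Per the labels, amplified RNA was labelled with Cy5. Per the file headers, the deposited values are the median intensity of each spot, joined over 3 scanner gains by a method not given in the sources used here. A processed intensity table was deposited too: each column equalled the spot median minus a constant of 78.4 to 87.7 units, times 0.807 to 1.02, with a median of 25 and dim cells empty.

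Spot medians were corrected with normexp (limma 3.58.1, R 4.3.3; offset 50, all 27456 spots, no local background), averaged per probe and quantile normalized on the log2 scale. Probes were kept when above the 95th percentile of 384 blank and 96 negative control spots on at least 2 arrays. Symbols came from the platform annotation, and the brightest kept probe stood for a gene. Genotypes were compared with lmFit and eBayes over 15955 genes, two-sided, with Benjamini-Hochberg adjustment and a threshold of 0.05. The code was tested on simulated data. The number of arrays limits the precision.

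Given array by array were members with an unadjusted p under 0.05, members without overlap whose log2 fold change was 0.15 or more in size, and a fixed set of ventricular subunits; of the partners, up to 6 by p. Other members named with values were chosen after those were seen. Alternatives changed background, scaling, filter, source, probe choice and variance, used the replicate number as a block, or left out an array. Some subunits were not analysed here.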

Additional observations from a re-analysis of the deposited data

How the results depend on the processing

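Over 14 alternatives no potassium channel gene had an adjusted p under 0.05, and the smallest limma adjusted p among them ranged from 0.160, without the first wild-type array, to 1, in the authors' table. Without the second wild-type array 1 of all genes tested passed, in place of 0, and leave-one-out counts ranged from 0 to 1. Genes at an unadjusted p under 0.05 numbered 1076 over all genes, 679 in the authors' table and 444 to 2344 without 1 array. Among the channel genes they numbered 2 of 69 (2.9%), against 6.74% of all genes. They numbered 4 with an offset of 16, after local background subtraction, in the authors' table and with a variance trend. The share of all genes in these settings was 6.58%, 8.09%, 4.26% and 6.22%. In the authors' table the 4 channel genes were Kcnv2, Kcne2, Kcnk13 and Kcnu1, and neither Kcnd2 nor Kcna7. The members' median log2 fold change of -0.013 was -0.024 with an offset of 16, -0.00045 after local background subtraction, 0.0079 with median scaling, 0.041 with 75th percentile scaling, -0.070 in the authors' table and -0.019 to -0.0071 without 1 array. With 75th percentile scaling 23 channel genes were lower in place of 40, where 30.2% of all genes were lower in place of 48.9%. The number detected was 69, and 67, 63 and 71 with the 99th percentile, all 4 arrays and blank spots alone.

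With the replicate block, 2 channel genes (Kcnd2 and Kcna7) again had an unadjusted p under 0.05 and 0 an adjusted one; the labels do not say that a number pairs samples, deviations of same-numbered arrays correlated at 0.097, and the block changed no call. Of the 24 detected members that the naming rule gave (Kcne4 is not among them), 14 turned sign under some alternative, none of them at an adjusted p under 0.05, though Abcc9 and Kcnh2 had an unadjusted one under 0.05 after local background subtraction. After local background subtraction log2 fold changes were 0.86 for Abcc9, 0.019 for Kcnab1, 0.41 for Kcnh2, -0.19 for Kcnip2, -0.29 for Kcnj14, -0.094 for Kcnj3, 0.026 for Kcnj5, 0.0085 for Kcnk2 and 0.079 for Kcnk3. Kcnk2 was 0.0082 with median scaling and 0.041 with 75th percentile scaling, Kcnk6 0.018 with the latter, and Kcnh2 0.0066 in the authors' table. Leaving out 1 array gave -0.29 to 0.11 for Abcc9, -0.015 to 0.19 for Kcne1, -0.11 to 0.071 for Kcnh2, -0.10 to 0.20 for Kcnip2, -0.0086 to 0.083 for Kcnj11, -0.14 to 0.23 for Kcnj14, -0.027 to 0.051 for Kcnj2, -0.0072 to 0.070 for Kcnj3, -0.12 to 0.020 for Kcnj8, -0.045 to 0.020 for Kcnk2 and -0.11 to 0.0035 for Kcnk3. The causes of these turns were not tested.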
